A study of Sus scrofa with 13 samples.

Results

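The calpain system of pig muscle was examined through 5 genes of the 25322 in the count tables. They were taken by name: CAPN1, CAPN2, CAPN3 and CAPNS1, which encode calpains and their small subunit, and CAST, which encodes calpastatin. Calpains are cysteine proteases of the cytoplasm that calcium switches on. Calpain 1 (µ-calpain) and calpain 2 (m-calpain) each pair a large catalytic subunit, from CAPN1 or CAPN2, with the small regulatory subunit from CAPNS1, and calpastatin is the protein that inhibits both. They cut proteins that anchor and align the contractile filaments, and after slaughter this cutting is a well known part of meat tenderisation. Calpain 3, from CAPN3, is made mainly in skeletal muscle, binds the giant protein titin and is not inhibited by calpastatin.

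RNA was sequenced from the longissimus lumborum, the loin muscle, of 13 unrelated female pigs of 6 months. The pigs were Hampshire (Hp) or Pietrain (Pi), and within each breed they came from the low or the high extreme of loin weight. The groups were Hp low (n = 3, pigs 1, 2 and 3), Hp high (n = 3, pigs 8, 9 and 10), Pi low (n = 3, pigs 3, 5 and 8) and Pi high (n = 4, pigs 1, 2, 6 and 7). Pigs of different groups that share a number are different animals. No pig was treated, and loin weight differs between the pigs together with whatever else differs between them, so the comparisons are associations.

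On the Sscrofa10.2 pig genome, CAPN1 (ENSSSCG00000012999) spans chromosome 2, 6129549 to 6155373, and CAST (ENSSSCG00000014170) lies on the same chromosome at 106934106 to 107128389. CAPN3 (ENSSSCG00000004728) spans chromosome 1, 143852200 to 143905749, and CAPNS1 (ENSSSCG00000030149) spans chromosome 6, 40913605 to 40920797. CAPN2 (ENSSSCG00000029411) lies on the unplaced scaffold GL894320.1, at 16474 to 39450, and its symbol comes from a gene name table, where those of the other 4 come from the authors' files. All values below cover the whole transcribed gene as counted, without splitting exons, introns or transcript forms. No other gene with known coordinates overlapped a member's span. COX7A1 lies 608 bases from CAPNS1, ZNF106 and GANC 4235 and 7571 bases from CAPN3, and ERAP1 4970 bases from CAST, and the library kit does not mark strand, so reads past a gene's end could be counted for its neighbour. With 194284 bases, CAST is at percentile 97.6 of gene span, and CAPNS1, with 7193 bases, is at percentile 23.1.

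The libraries held 11312755 to 20134612 counts, and the members had between 372 counts (CAST in Hp high pig 10) and 19134 counts, so counting error was at most 5.18% of a member's value. All 15 pairs of pigs within a group differed by more than sampling noise. Muscle markers were abundant in every pig, the sum over the 4 measured (ACTA1, CKM, MYH1 and MYH7) never falling under 72662 counts per 1000000 library counts (CPM), so the muscle label held. Pi low pig 5 stood apart in its slow fibre transcripts: the 5 measured (MYH7, TNNT1, TNNI1, TNNC1 and MYL3) summed to 27.7 CPM there and to between 747 and 17800 CPM in the other pigs. Values of the 5 genes without this pig are given beside the results it moved, and values of other genes include it. In muscle taken whole, fewer cells of a type and less RNA per cell cannot be told apart.

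Per-pig levels are given as CPM scaled by TMM, a correction for library composition, over all 13 pigs. Exon lengths were not used, so levels are compared between pigs and never between genes. CAPN1, the catalytic subunit of calpain 1, was at 107, 173 and 127 CPM in Hp low pigs 1, 2 and 3, and at 114, 122 and 121 CPM in Hp high pigs 8, 9 and 10. It was at 70.5, 53.0 and 58.0 CPM in Pi low pigs 3, 5 and 8, and at 86.0, 68.7, 60.9 and 122 CPM in Pi high pigs 1, 2, 6 and 7. Every Hampshire pig was above every Pietrain pig except Pi high pig 7, whose level lay inside the Hampshire range. Group means were 136 ± 33.7 (SD, n = 3), 119 ± 4.32 (n = 3), 60.5 ± 8.98 (n = 3) and 84.4 ± 27.2 CPM (n = 4) in that order of groups.

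CAPN2, the catalytic subunit of calpain 2, was at 116, 130.4 and 122 CPM in the Hp low pigs and 123, 136 and 115 CPM in the Hp high pigs. In Pietrain it was at 86.9, 115 and 90.8 CPM in the low pigs and 83.4, 97.2, 96.6 and 94.1 CPM in the high pigs. The loin weight classes overlapped in both breeds, and Pi low pig 5 was the single Pietrain pig that reached the Hampshire range. CAPNS1, the subunit that both enzymes share, was at 104, 119.9 and 102 CPM in the Hp low pigs and at 146, 153 and 149.6 CPM in the Hp high pigs. In Pietrain it was at 67.3, 80.1 and 63.7 CPM in the low pigs and at 78.3, 67.6, 76.5 and 85.6 CPM in the high pigs. All Hampshire pigs were above all Pietrain pigs for CAPNS1, and all Hp high pigs were above all Hp low pigs.

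CAPN3 was at 958, 835 and 965 CPM in the Hp low pigs and at 869, 755 and 948 CPM in the Hp high pigs. In Pietrain it was at 773, 1029 and 922 CPM in the low pigs and at 1224, 698, 885 and 957 CPM in the high pigs. All 4 groups overlapped for CAPN3, and the lowest and the highest pig were both Pi high. CAST was at 59.4, 41.6 and 46.1 CPM in the Hp low pigs and at 31.4, 35.9 and 23.8 CPM in the Hp high pigs. In Pietrain it was at 38.8, 73.0 and 75.0 CPM in the low pigs and at 65.6, 58.0, 81.3 and 76.6 CPM in the high pigs. For CAST every Hp high pig was below every other pig of either breed, and Pi low pig 3 was below every other Pietrain pig.

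**Figure D1:**
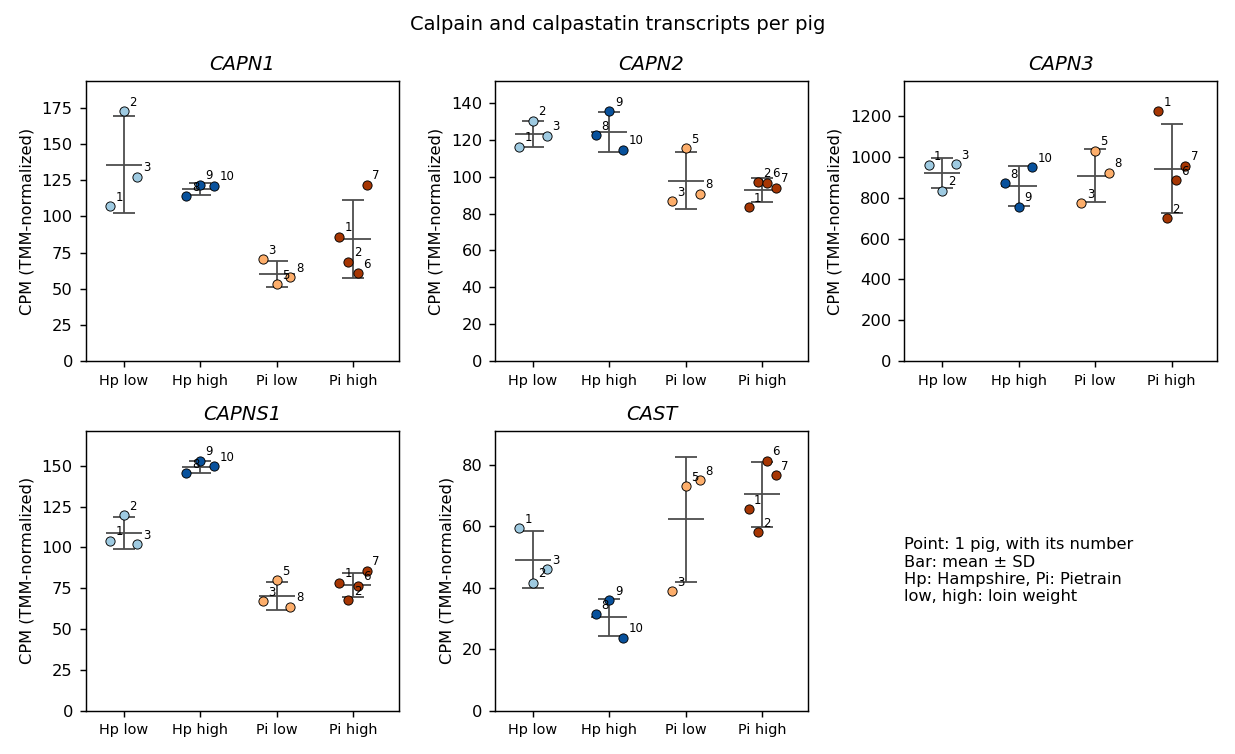
TMM-normalized CPM of the 5 genes in each pig (1 point per pig, labelled with its number; bars are the mean ± SD of each group of 3 or 4 pigs). The Hp high pigs are the lowest for CAST, at 23.8 to 35.9 CPM, and the highest for CAPNS1, at 146 to 153 CPM, while the 4 groups overlap for CAPN3.

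The order of the group means was Pi high, Pi low, Hp low, Hp high for CAST, and of these neighbours Hp low and Hp high passed the test between them. For CAPN1 the order was Hp low, Hp high, Pi high, Pi low, and no neighbouring pair passed. For CAPNS1 the order was Hp high, Hp low, Pi high, Pi low, and neither breed's neighbours passed. CAPN2 and CAPN3 had group means within 92.8 to 124 CPM and 858 to 941 CPM.

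Hampshire pigs of high loin weight were compared with those of low loin weight to ask which transcripts differ with muscle mass within the breed. Among the 5 genes, calpastatin fell and no calpain subunit passed the test. CAST averaged 30.4 ± 6.12 CPM (SD, n = 3) in the high pigs and 49.0 ± 9.25 CPM (n = 3) in the low pigs, 1.63-fold lower. The small subunit CAPNS1 had the opposite direction, 149 ± 3.78 against 109 ± 9.76 CPM (n = 3 each), and missed the threshold narrowly. CAPN1, CAPN2 and CAPN3 had log2 fold changes near 0.

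A gene was called a differentially expressed gene (DEG) at an adjusted p under 0.05 with at least a 1.2-fold change. By the quasi-likelihood test of edgeR, adjusted by Benjamini and Hochberg's method, 1 of the 5 was a DEG, where 26.6% of all 12228 genes tested were. The CAST log2 fold change, high over low, was -0.70 (SE 0.206, 95% interval -1.17 to -0.23, adjusted p = 0.0364). CAPNS1 had a log2 fold change of 0.46 (SE 0.149, 95% interval 0.12 to 0.79, adjusted p = 0.0505). The 95% intervals of the log2 fold change ran from -0.63 to 0.25 for CAPN1, from -0.32 to 0.35 for CAPN2 and from -0.50 to 0.30 for CAPN3. CAST and CAPNS1 were the 2 of 5 genes whose high and low pigs did not overlap, against 44.9% of all genes in Hampshire. The median log2 fold change was -0.10 over the 5 genes and 0.03 over all genes tested.

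The CAST call in Hampshire depended on single pigs, on gene length and on the pigs that set the spread. It was lost on leaving out Hp low pig 1, Hp low pig 3, Hp high pig 8 or Hp high pig 10, where adjusted p ranged from 0.0556 to 0.122 by edgeR and the log2 fold change from -0.76 to -0.56. Calls over all genes then numbered 2375, 1224, 3049 and 1760 in that order, against 3256 with all pigs. Across 9945 genes with known span, log2 fold changes in Hampshire went with gene span (Spearman rho -0.386, across genes), long genes being lower in the high pigs. In 1 fit over all 13 pigs the fold change was nearly the same and the call was lost (-0.69, adjusted p = 0.0690 by edgeR). With the length trend removed per pig, CAST had a log2 fold change of -0.29 (SE 0.218, adjusted p = 0.356 by edgeR) and CAPNS1 of 0.19 (adjusted p = 0.341).

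**Figure D2:**
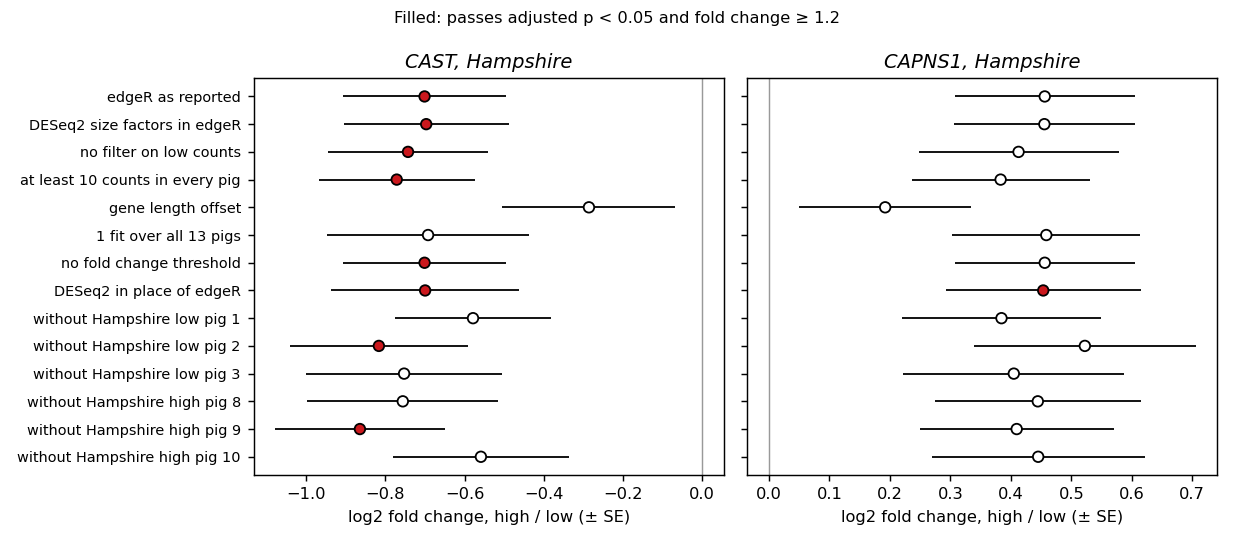
Log2 fold change of CAST (left) and CAPNS1 (right) between Hampshire high and low pigs under each analysis setting, with bars of ± SE and filled points where the test was passed. CAST stays below 0 throughout, moves closest to 0 with the gene length offset (-0.29), and passes without Hp low pig 2 or Hp high pig 9 but not without any other single pig nor in 1 fit over all 13 pigs (-0.69); CAPNS1 passes with DESeq2 alone.

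Some transcripts of other cell and fibre types passed for loin weight in Hampshire, where 26.6% of all genes tested did. The counts of 1 of 4 and 1 of 3 below are near that share. Their part in the CAST and CAPNS1 values was not tested. All 5 slow fibre transcripts measured rose in the high pigs, with summed levels of 11699.6 to 17800 CPM against 2834 to 6607 CPM. Of the fast fibre transcripts, 1 of 4 passed, MYH1 (the fast IIx myosin), which fell. TNNC2, MYLPF and ATP2A1 had log2 fold changes of 0.72, 0.66 and -0.40 and did not pass, so the list had no shared direction. Fast fibre sums were 76643 to 77911 CPM against 75857 to 125222 CPM. Of the muscle fibre list, CKM and MYH7 rose and MYH1 fell among 4, with sums of 148418 to 217458 CPM against 118369 to 181527 CPM. Fibroblast and matrix transcripts rose in 3 of 6 (1878 to 4872 against 739 to 1587 CPM), macrophage transcripts in 2 of 5 (32.7 to 67.4 against 18.6 to 28.0 CPM) and adipocyte transcripts in 1 of 3 (7.01 to 30.5 against 3.22 to 6.22 CPM). None of 4 endothelial, 2 blood and 2 satellite cell transcripts passed by edgeR, and their sums were 177 to 217 against 143 to 171 CPM, 82.1 to 238 against 45.3 to 173 CPM and 32.1 to 43.0 against 39.4 to 42.5 CPM. No marker of these lists was at 0 in every pig.

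The same comparison was made in Pietrain. None of the 5 genes differed between high and low loin weight beyond the spread between pigs. Calpastatin averaged 70.4 ± 10.5 CPM (SD, n = 4) in the high pigs and 62.3 ± 20.3 CPM (n = 3) in the low pigs. CAPN1 had the farthest shift, 84.4 ± 27.2 against 60.5 ± 8.98 CPM, and its groups overlapped. Pi high pig 7 had 122 CPM and the other Pi high pigs at most 86.0 CPM.

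By edgeR 0 of the 5 genes were called in Pietrain, where 0.0% of 12065 genes tested were. Without adjustment 398 genes and none of the 5 had a p under 0.05, and DESeq2 called 1 gene, which was not among the 5. CAPN1 had a log2 fold change of 0.51 (SE 0.261, 95% interval -0.06 to 1.09, adjusted p = 0.939) and without Pi high pig 7 it was 0.27. CAST had a log2 fold change of 0.21 (SE 0.244, 95% interval -0.33 to 0.76, adjusted p = 0.939). The intervals were -0.21 to 0.55 for CAPNS1, -0.41 to 0.34 for CAPN2 and -0.39 to 0.56 for CAPN3. None of the 5 genes separated high from low Pietrain pigs, where 4.7% of all genes did. The 5 genes' median log2 fold change was 0.17, against 0.02 over all genes tested. Without Pi low pig 5, again none of the 5 was called, and the CAST log2 fold change was 0.32.

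Whether the loin weight difference itself differed between the breeds was tested in a joint model of the 4 groups. CAST had the farthest value, since it was lower in Hp high than in Hp low pigs while the Pietrain classes lay close together, but it did not pass after adjustment. Its difference, Hampshire minus Pietrain, was -0.87 on the log2 scale (SE 0.348, 95% interval -1.61 to -0.12, adjusted p = 0.156 by edgeR). CAPN1 had a difference of -0.67 (SE 0.340, adjusted p = 0.267), and CAPNS1, CAPN2 and CAPN3 had 0.33, 0.09 and -0.15. Without Pi low pig 5 the difference was -1.04 for CAST (adjusted p = 0.149 by edgeR) and -0.63 for CAPN1 (adjusted p = 0.382), while CAPNS1 was at 0.18. By edgeR 0 of the 5 genes were called, against 5.9% of 12831 genes tested. CAST was the 1 member with an unadjusted p under 0.05, and DESeq2 likewise called 0 of the 5.

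**Figure D3:**
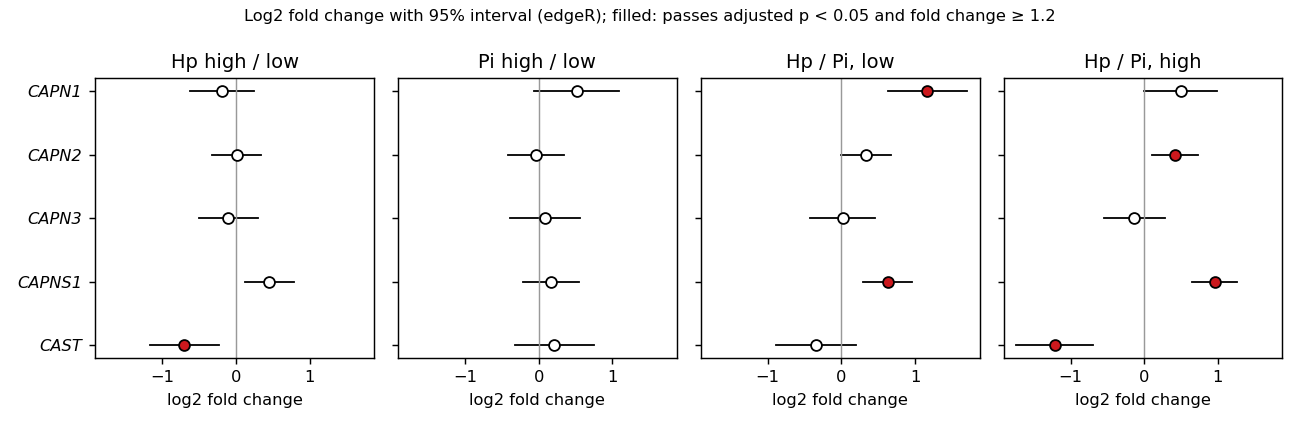
Log2 fold changes (edgeR, points) with 95% intervals (lines) of the 5 genes in 4 comparisons: high over low loin weight in Hampshire and in Pietrain, and Hampshire over Pietrain at low and at high loin weight. Filled points passed an adjusted p under 0.05 and 1.2-fold: CAST in Hampshire, CAPN1 and CAPNS1 between breeds at low loin weight, and CAPN2, CAPNS1 and CAST at high loin weight.

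The breeds were then compared, first within each loin weight class and then over both. The ubiquitous calpain transcripts were higher in Hampshire and calpastatin was lower when averaged over the classes, where 52.3% of all genes passed. Within the single classes, CAPNS1 alone of the 5 genes passed in both. Averaged over the classes, CAPN1, CAPN2 and CAPNS1 were higher in Hampshire by 0.83, 0.38 and 0.79 on the log2 scale, and CAST was lower by a log2 fold change of -0.78. CAPN3, the calpain of skeletal muscle, did not pass, with a log2 fold change of -0.06 (95% interval -0.36 to 0.24). Log2 fold changes between breeds went with gene span too (Spearman rho -0.215 at low loin weight, -0.391 at high loin weight and -0.342 averaged, across 9975 genes), long genes being lower in Hampshire. No correction for this was run here, so its part in the breed values of CAST, of long span, and CAPNS1, of short span, was not tested. Breed and anything else that differed between the Hampshire and the Pietrain pigs cannot be told apart.

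At low loin weight, 2 of the 5 genes passed by edgeR, where 17.9% of all genes did. CAPN1 was 2.24-fold higher in Hp low than in Pi low pigs (log2 fold change 1.17, SE 0.251, adjusted p = 0.0146), and CAPNS1 was higher by 0.63 on the log2 scale (SE 0.156, adjusted p = 0.0206). CAST had a log2 fold change of -0.35 here (SE 0.252, adjusted p = 0.340) and CAPN2 of 0.33 (SE 0.159, adjusted p = 0.148). Neither CAPN1 nor CAPNS1 passed when Hp low pig 2, Pi low pig 5 or Pi low pig 8 was left out. Calls over all genes fell too, from 2300 of 12831 to 109 of 13172, 163 of 13239 and 111 of 13176 in that order. The CAPN1 and CAPNS1 log2 fold changes stayed at 0.999 to 1.34 and 0.60 to 0.73 whichever pig was left out. Without Pi low pig 5, the pig of few slow fibre transcripts, adjusted p was 0.0685 for CAPN1 and 0.0558 for CAPNS1 by edgeR, and the CAST log2 fold change was -0.22.

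At high loin weight, 3 of the 5 genes passed by edgeR, where 46.8% of all genes did. CAST was 2.32-fold lower in Hp high than in Pi high pigs (log2 fold change -1.21, SE 0.244, adjusted p = 0.00132). CAPNS1 was higher by 0.96 on the log2 scale (SE 0.144, adjusted p = 0.000183) and CAPN2 by 0.42 (SE 0.148, adjusted p = 0.0304). CAPN1 had a log2 fold change of 0.50 (SE 0.230, adjusted p = 0.0904). Of 13 fits that each left out 1 pig, it passed in 1, without Pi high pig 7, at 0.73 (adjusted p = 0.00941 by edgeR). That is the Pietrain pig of highest CAPN1, so leaving it out raises the difference by construction. Over the 13 fits the CAPN1 log2 fold change ranged from 0.34 to 0.73 and adjusted p reached 0.245 by edgeR. CAPN2 did not pass without Hp high pig 8, 9 or 10 or without Pi high pig 1, with adjusted p of 0.0519 to 0.144 by edgeR.

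Averaged over both classes, 4 of the 5 genes passed by edgeR, where 52.3% of all genes did, with adjusted p of 0.00120 for CAPN1, 0.0102 for CAPN2, 7.11e-05 for CAPNS1 and 0.00222 for CAST. The same 4 passed whichever of the 13 pigs was left out. The 3 breed comparisons share pigs and so do not count as separate evidence. CAPNS1 was the 1 gene of the 5 for which all Hampshire pigs (102 to 153 CPM) lay above all Pietrain pigs (63.7 to 85.6 CPM), where 12.1% of all genes separated the breeds. The medians over the 5 genes were 0.33, 0.42 and 0.38 on the log2 scale at low loin weight, at high loin weight and averaged, against 0.00, 0.02 and -0.00 over all genes tested. Some marker transcripts passed between breeds as well, to be read against the same 52.3% of all genes. Their part in the breed differences was not tested. Averaged over classes, 5 of 5 macrophage transcripts were higher in Hampshire by edgeR (sums of 18.6 to 67.4 CPM against 7.16 to 18.8 CPM in Pietrain), as were 2 of 2 satellite cell transcripts (32.1 to 43.0 against 11.8 to 37.7 CPM) and 2 of 4 muscle fibre transcripts, ACTA1 and CKM (118369 to 217458 against 72662 to 139035 CPM). In the fast fibre, adipocyte, fibroblast and matrix, and endothelial lists 1 transcript each was higher (TNNC2, PLIN1, DCN and ENG), and none of the slow fibre and blood lists passed.

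The balance of protease to inhibitor transcripts was followed as the ratio of read counts of a calpain to CAST within a pig, in which sequencing depth cancels. It is a ratio of counts, not of molecules, so its size carries transcript length, which was not used here. On the genome, introns included, CAST spans 194284 bases against 25825 for CAPN1 and 22977 for CAPN2. Differences in the ratios between groups were not corrected for the trend of fold changes with this gene span. The ratios of both calpains to calpastatin were higher in Hampshire than in Pietrain. The CAPN1 to CAST ratio was 1.80, 4.15 and 2.76 in the Hp low pigs and 3.63, 3.39 and 5.09 in the Hp high pigs. It was 1.81, 0.727 and 0.773 in the Pi low pigs and 1.31, 1.18, 0.750 and 1.59 in the Pi high pigs. The breeds met only at their edges, where Hp low pig 1 and Pi low pig 3 had nearly the same ratio.

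For CAPN2 to CAST the ratio was 1.96, 3.13 and 2.65 in the Hp low pigs and 3.90, 3.77 and 4.81 in the Hp high pigs. It was 2.24, 1.58 and 1.21 in the Pi low pigs and 1.27, 1.67, 1.19 and 1.23 in the Pi high pigs. Hp low pig 1 again lay below Pi low pig 3, and every other Hampshire pig was above every Pietrain pig. Between breeds the CAPN1 to CAST ratio was 3.05-fold higher in Hampshire (log2 difference 1.61; exact permutation test within loin weight class, two-sided, p = 0.00286, adjusted p = 0.0129 over 9 tests). The CAPN2 to CAST ratio was 2.20-fold higher in Hampshire (log2 difference 1.14; the same exact test, p = 0.00286, adjusted p = 0.0129). The smallest p this design allows is 0.00143. Both ratios share CAST and use the same pigs and counts as the breed comparisons above, so they do not count as separate evidence. Without Pi low pig 5 the adjusted p from the exact test was 0.0257 for both.

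Within Hampshire, the CAPN2 to CAST ratio had a geometric mean of 4.14 in the high pigs and 2.53 in the low pigs, and the classes did not overlap. The log2 difference was 0.71 (exact permutation test, two-sided, p = 0.100, the smallest that 3 against 3 pigs allow, adjusted p = 0.225). By CPM, CAST itself separated these classes, as did 44.9% of all genes. For CAPN1 to CAST the means were 3.97 and 2.74 with overlap (log2 difference 0.53, exact permutation p = 0.3, adjusted p = 0.441), and without Hp low pig 1 or Hp high pig 10 the difference was 0.23 or 0.36. In Pietrain neither ratio passed: log2 differences, high minus low, were 0.21 for CAPN1 to CAST and -0.29 for CAPN2 to CAST (exact permutation p = 0.629 and 0.343, adjusted p = 0.629 and 0.441, smallest possible p 0.0286). Without Pi low pig 5 the former was -0.021 and the latter -0.31, and the former was 0.024 without Pi low pig 8, 0.064 without Pi high pig 7, 0.64 without Pi low pig 3 and 0.43 without Pi high pig 6. Without Pi low pig 3 the latter was -0.059, and without Pi low pig 8 it was -0.50. CAPN1 to CAPN2, the ratio of both enzymes' catalytic subunits, ranged from 0.460 in Pi low pig 5 to 1.33 in Hp low pig 2. It did not pass between breeds (log2 difference 0.47, exact permutation p = 0.0643, adjusted p = 0.193) or between loin weight classes in Hampshire (-0.17, exact permutation p = 0.5) or in Pietrain (0.50, exact permutation p = 0.257). The Pietrain value was 0.29 without Pi low pig 5 and 0.32 without Pi high pig 7, and the Hampshire value was -0.029 without Hp low pig 2 and -0.29 without Hp low pig 1.

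**Figure D4:**
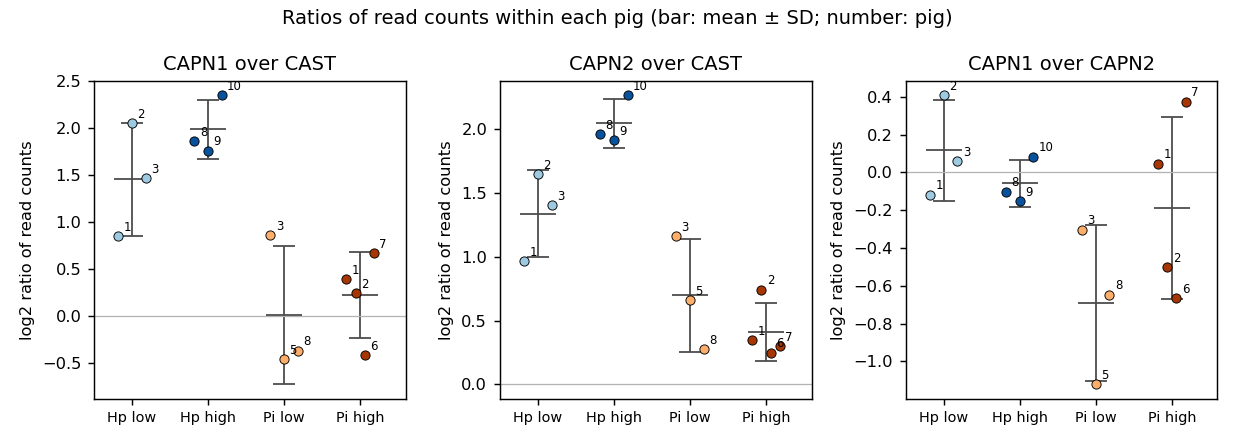
Log2 ratio of read counts in each pig for CAPN1 over CAST, CAPN2 over CAST and CAPN1 over CAPN2 (1 point per pig, labelled with its number; bars are mean ± SD of the group). In the left and middle panels the Hp high pigs lie above all Pietrain pigs, and Hp low pig 1 lies at or below Pi low pig 3.

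Of 15 other calpain family genes listed, 10 were in the tables and 4 had enough counts to be tested. In Hampshire 1 of the 4 passed for loin weight, where 26.6% of all genes did. CAPN7, a calpain without the calcium binding hand domains of the classical enzymes, fell in Hampshire with high loin weight (log2 fold change -0.66, SE 0.213, adjusted p = 0.0496 by edgeR). CAPN5, CAPN6 and CAPN15 had log2 fold changes of 0.26, 0.53 and 0.54 there and did not pass. Values of these other calpain genes were not corrected for the trend with gene span. They were also not followed when single pigs were left out. In Pietrain none of the 4 passed by edgeR. Averaged over loin weight classes, CAPN5, CAPN15 and CAPN6 were higher in Hampshire by 1.70, 1.21 and 0.84 on the log2 scale, while CAPN7 was lower (log2 fold change -1.28), all 4 passing by edgeR with adjusted p of at most 0.00165, where 52.3% of all genes passed. CAPN9, CAPN13 and CAPN14 had 0 counts in every pig. The medians of the 4 genes were 0.39 in Hampshire and 0.31 in Pietrain for loin weight, and 1.03 between breeds.

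Of 37 listed substrates and binding partners of calpains in muscle, 26 were in the tables and all 26 were tested. In Hampshire, 3 were higher and 7 lower with high loin weight, 10 of 26 against the 26.6% of all genes, with a median log2 fold change of -0.29. Those lower mostly encode structural proteins of the fibre, and their values were not corrected for the trend with gene span. Dystrophin (DMD), which links the cytoskeleton to the membrane, had a log2 fold change of -1.84 (adjusted p = 0.00118 by edgeR). Nebulin (NEB), which lines the thin filament, had -1.29, myospryn (CMYA5) -1.67, filamin C (FLNC) -0.86, vinculin (VCL) -0.57 and myomesin 1 (MYOM1) -0.52. The farthest was PPP3CA, the catalytic subunit of the phosphatase calcineurin, at -2.41 (adjusted p = 0.00128 by edgeR).

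The 3 partners that rose in Hampshire were the slow troponin TNNT1 at 2.13, vimentin (VIM), an intermediate filament mostly of non-muscle cells, at 1.58 and the titin-associated ankyrin repeat protein ANKRD2 at 1.23. TNNT1 is also in the slow fibre list above. In Pietrain none of the 26 passed by edgeR, and their median was 0.10. The loin weight difference itself differed between breeds for 4 of 26 partners by edgeR, where 5.9% of all genes passed. All 4 were more negative in Hampshire: PPP3CA (-2.48, adjusted p = 0.00251), DMD (-1.68, adjusted p = 0.00438), CMYA5 (-1.47, adjusted p = 0.0132) and NEB (-0.97, adjusted p = 0.0311). This difference also went with gene span over all genes (Spearman rho -0.337), and no correction for it was run here.

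Between breeds, averaged over loin weight classes, 5 partners were higher in Hampshire and 11 lower, 16 of 26 against the 52.3% of all genes. The annexins ANXA2 and ANXA6, calcium-dependent membrane binding proteins, were higher by 0.97 and 0.34 on the log2 scale, vimentin by 0.89, talin 1 (TLN1) by 0.69 and alpha spectrin (SPTAN1) by 0.56. Among those lower were CMYA5 (-1.80), the titin-binding ANKRD1 (-1.55), PPP3CA (-1.48), NEB (-1.23), DMD (-0.93) and the calcium release channel RYR1 (-0.67). MYOM1, ANKRD23, ACTN2, CTNNB1 and PDLIM3 completed this set, at -0.71 to -0.39.

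**Figure D5:**
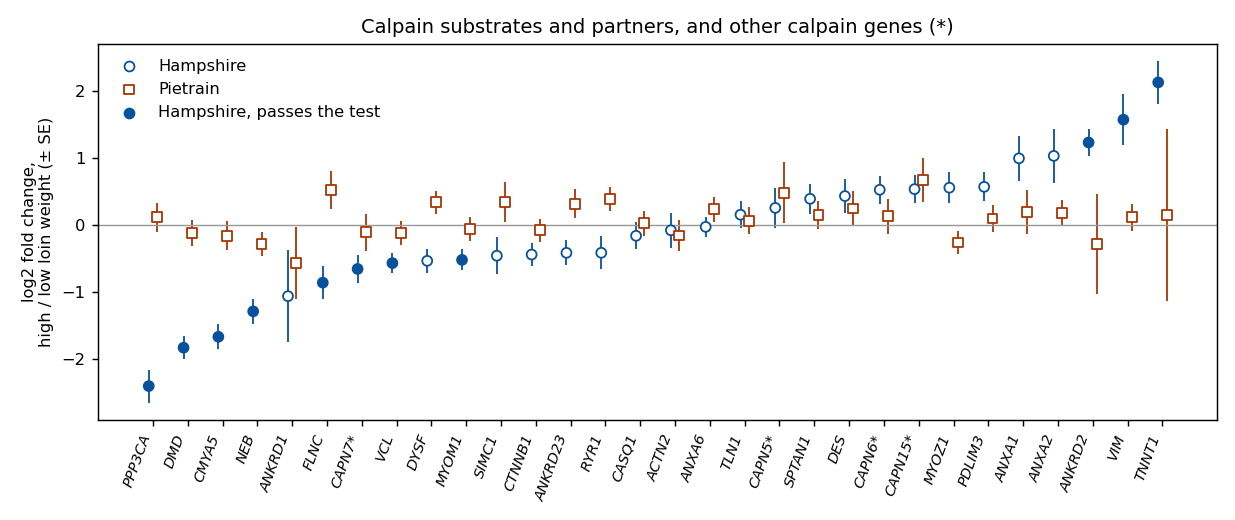
Log2 fold change, high over low loin weight, of the 26 tested calpain substrates and partners and of 4 other calpain genes (marked with an asterisk), with bars of ± SE, in Hampshire (circles) and Pietrain (squares). Filled circles passed the test in Hampshire, from PPP3CA at -2.41 to TNNT1 at 2.13; no Pietrain value passed.

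The genes whose levels went most closely with each member over the 13 pigs were sought among 9810 named genes, by Pearson's r of log2 CPM. These are descriptions across pigs that share breed and loin weight class, so r of the deviations from the group means is given second. For CAST they were ABHD5 (r = 0.954 and 0.888), a co-activator of the lipase that starts fat droplet breakdown, COPA (0.948 and 0.861), of the Golgi vesicle coat, and EAF1 (0.923 and 0.787). For CAPN1 they included TACC2 (0.955 and 0.878) and CLPTM1 (0.949 and 0.871). CAPN2 went with BID, LRRC59 and TCF19, with r of 0.891 to 0.917 over all pigs and of 0.701 to 0.786 within groups.

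For CAPNS1 the closest were OCEL1 (0.981 and 0.863), the phosphatase subunit PPP1CA (0.979 and 0.663) and CST6 (0.973 and 0.665), which encodes a cysteine protease inhibitor of the cystatin family. For CAPN3 they were TSSK3 (0.836 and 0.864), GANC (0.823 and 0.834) and FAM184B (0.817 and 0.934). GANC is a close neighbour of CAPN3, as given above. CAPN3 was the 1 member whose closest genes did not have a lower r within groups than over all pigs.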

How the data were processed

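Loin muscle RNA from 13 pigs was sequenced as 101-base single reads without strand information, and the authors aligned the reads to Sscrofa10.2. The deposited counts are whole numbers per gene and were not normalized; the submitters' processing notes name FastQC, STAR, RSEM and DESeq2, and since RSEM estimates need not be whole, whether they were rounded is not given in the sources used here. Columns with the authors' own fold changes and p-values accompany the counts and were not used; gene positions were. Symbols were available for 13168 of 25322 genes. Groups come from the labels, which number the pigs, and the authors describe the pigs as unrelated. Counts were tested with edgeR 4.0.16 (R 4.3.3) quasi-likelihood fits after TMM normalization and filterByExpr, within each breed for loin weight and over the 4 groups jointly for the other comparisons, with Benjamini-Hochberg adjustment over all genes tested. A DEG had an adjusted p under 0.05 and at least a 1.2-fold change (the difference between breeds in the loin weight effect: adjusted p alone). Count ratios (0.5 added to each count) were compared by exact permutation tests. Log2 CPM for likeness used a prior count of 2. Alternatives were DESeq2 1.42.0, its size factors, other filters, 1 fit over all pigs, a gene length offset (lowess, span 0.5) and leaving out each pig. The scripts were tested on simulated data. Named were the 5 members, partners and other calpains that passed or were extreme, and the 3 closest genes per member, of which 1 is not reported here. Members and lists were chosen with earlier results of these data known. Depth was 11312755 to 20134612 counts per library; intervals cover 95%.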

Additional observations from a re-analysis of the deposited data

Results flagged for a closer look

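In Pi high pig 2 the CAPN2 to CAST count ratio was 1.67, where the other 3 Pi high pigs had 1.19 to 1.27. Its gap to the next pig was 0.831 of the group's range, just above the limit of 0.829 for 4 samples. It was the 1 value so marked in 8 tests of this kind, and chance marks about 1 in 20 groups.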

How the results depend on the processing

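In Hampshire, the number of the 5 genes called for loin weight was 0 with the gene length offset, 0 in 1 fit over all 13 pigs (CAST -0.69, adjusted p = 0.0690 by edgeR) and 2 with DESeq2 (CAPNS1 added, adjusted p = 0.0245), and 0 to 1 when single pigs were left out. Over all genes, Hampshire calls were 3256 of 12228 in the main fit and 2313 of 9945 with the offset. They were 2541 of 12831 in 1 fit, 3356 of 18360 with DESeq2 and 1224 to 3049 without single pigs. Between breeds at low loin weight, leaving out single pigs gave 0 to 2 called. Calls over all genes there ranged from 109 to 3091, against 2300 with all pigs. CAPN2 did not pass between breeds at high loin weight without the filter (0.36, adjusted p = 0.108 by edgeR). Values near 0 changed sign: CAPN2 in Hampshire was -0.032 without the filter and -0.062 with at least 10 counts in every pig, CAPN3 in Hampshire was 0.18 with the length offset, and CAPN3 between breeds at low loin weight was -0.0016 with DESeq2. Log2 values that changed sign on leaving out single pigs ranged in Hampshire from -0.38 to 0.012 (CAPN1) and -0.085 to 0.058 (CAPN2), and in Pietrain from -0.0057 to 0.38 (CAST), -0.081 to 0.075 (CAPN2), -0.038 to 0.23 (CAPN3) and -0.021 to 0.64 (CAPN1 to CAST ratio). The difference between breeds in the loin weight effect ranged from -0.088 to 0.097 (CAPN2), and CAPN3 between breeds from -0.032 to 0.13 at low, -0.26 to 0.0077 at high loin weight and -0.105 to 0.037 averaged. The cause was not tested.

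Of the single-gene values under alternatives, 436 kept direction and side of the threshold, 17 lost and 2 gained a call, and 20 changed sign. The 436 include genes not called in the main fit, which had no call to lose. They also include joint fits that left out a pig outside the groups compared, so the number does not measure how firm the calls are. Over all genes, DESeq2 called 1242 genes for the difference between breeds in the loin weight effect and edgeR 757, and in Pietrain 1 and 0. Without the filter the median over all genes of that difference was -0.13. The length offset was not run in the joint fits, where 77.7% of genes had a known span. No paired analysis was possible because the pigs are unrelated and a shared pig number does not mark a pair.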
